A study of Monodelphis domestica with 7 samples.

Results

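The 3 genes described here, C1QA (ENSMODG00000023962), C1QB (ENSMODG00000019606) and C1QC (ENSMODG00000016105), encode the chains of complement C1q and were taken by their identifiers from the 21314 genes counted in spinal cord of the gray short-tailed opossum, *Monodelphis domestica*. All 3 were among the 13534 genes that passed the low-count filter. RNA came from the cord segment rostral to a complete transection at T10, made at postnatal day 7 (P7) or P28 and left for 24 h, and from uninjured cords of matching age. The P8 control and P7+24h injured groups had 2 libraries each, the P29 control 1 and the P28+24h injured group 2. The study's methods give a pool of 2 individuals per library, but also more animals per group than such pools would hold. The animals came from a colony of this marsupial, whose young are born very immature. At P7 whole litters were injured and controls came from separate litters, so litter and injury cannot be told apart at that age, whereas at P28 the study usually injured part of a litter and took the other pups, anaesthetised but not injured, as controls. Which litters went into these libraries is not given in the sources used here. Samples for the 2 sequencing runs came from separate collections, replicate 1 of every group is run 1 and replicate 2 is run 2, and the only P29 control is in run 1. The deposited values are whole-number read counts, with 3332232 to 6256074 per library. A level below is in CPM, the count scaled to a common library size after TMM adjustment, and the 95% intervals drawn for it cover counting error only.

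C1q is the recognition molecule of the classical complement pathway. Its A, B and C chains assemble into a protein with collagen-like stalks and globular heads, which binds antibody complexes, dying cells and other targets. Together with the proteases C1r and C1s it forms the C1 complex, which cleaves C4 and C2 and so leads to the cleavage of C3. In the central nervous system microglia are a main source of C1q, and C1q is known for tagging synapses that are later removed. The 3 chains are encoded by neighbouring genes: in the RefSeq gene table of the opossum assembly mMonDom1, C1QB, C1QC and C1QA lie next to each other in that order, between the ephrin receptor genes EPHB2 and EPHA8.

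C1q transcripts were present in every library and were lowest in P8 controls. For C1QA, the A chain, the P8 controls had 37 (run 1) and 69 (run 2) counts, P7+24h cords 109 and 293, the P29 control 144 and P28+24h cords 333 and 599. In CPM these were 9.15 and 11.4, 28.6 and 43.8, 41.3, and 117 and 97.0. The P8 controls were therefore below all other libraries and the P28+24h libraries above all others, while the P29 control lay between the values of the 2 P7+24h libraries. C1QB, the B chain, had 29 and 41 counts in P8 controls, 114 and 192 in P7+24h, 126 in the P29 control and 396 and 353 in P28+24h. Its levels were 7.17 and 6.75 CPM, 29.9 and 28.7 CPM, 36.2 CPM, and 140 and 57.2 CPM in the same order. The 2 runs were close to each other for C1QB in P8 controls and in P7+24h cords and far apart in the P28+24h cords. C1QC, the C chain, had 23 and 42, 70 and 156, 95, and 246 and 366 counts. That is 5.69 and 6.91 CPM in P8 controls, 18.4 and 23.3 CPM in P7+24h, 27.3 CPM in the P29 control and 86.8 and 59.3 CPM in P28+24h. For each chain the injured libraries did not overlap with the controls of their own age. With 1 or 2 libraries per group such separation arises easily, and the share of all genes that show it was not counted. The group means stood in 1 order for all 3 chains, with P8 control lowest, then P7+24h, then P29 control and P28+24h highest, of which the middle pair are compared further below.

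**Figure D1:**
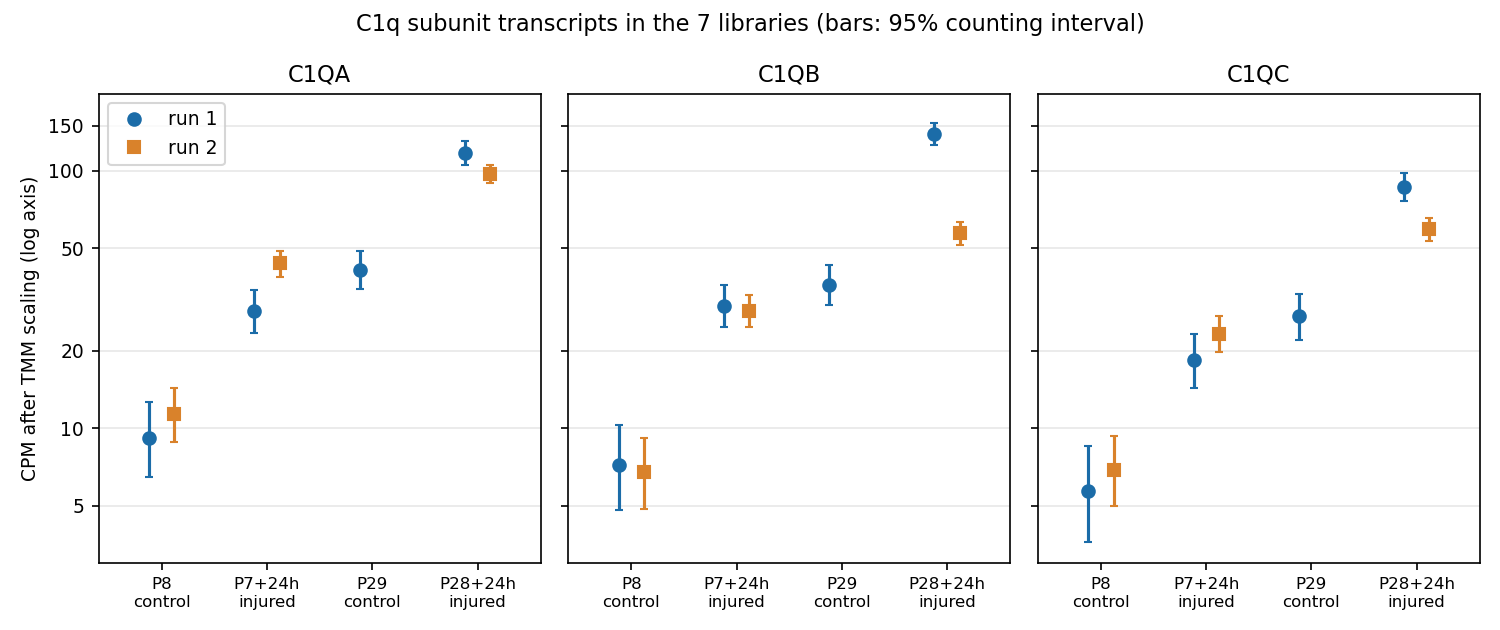
Level of C1QA, C1QB and C1QC in CPM after TMM scaling (log axis) in each of the 7 libraries, with 95% Poisson counting intervals; circles are run 1 and squares run 2. For each chain the P8 controls are lowest and the P28+24h injured libraries highest. The P29 control is between the P7+24h injured libraries for C1QA and above both for C1QB and C1QC.

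Summed over the 3 chains, the level was 22.0 and 25.0 CPM in P8 controls, 76.8 and 95.7 CPM in P7+24h, 105 CPM in the P29 control and 344 and 213 CPM in P28+24h. The mean was 23.5 ± 2.13 (SD, n = 2) for P8 controls, 86.3 ± 13.4 (n = 2) for P7+24h and 279 ± 92.2 (n = 2) for P28+24h. The run 1 and run 2 values of P28+24h thus differed more than those of any other group with 2 libraries. In tissue RNA of this kind a change in the number of cells that make a transcript and a change in its amount per cell cannot be told apart.

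Changes were tested by the quasi-likelihood method of edgeR, fitting the 4 groups together and adjusting p-values by Benjamini-Hochberg over all 13534 genes. A gene was called at an adjusted p below 0.05 together with a change of 2-fold or more. A second fit added the replicate number, that is the run, as a block. At P28+24h the block carries over to the P29 control a run difference that was measured in other groups. A likelihood ratio test with that block is given as well for the comparisons of injury. It takes the estimated spread of a gene as known, without the allowance for its error that the quasi-likelihood test makes. Without the block the p-values measure the spread between pools, which includes the difference between runs. With it they measure the spread left after that difference is taken out.

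The uninjured cord was compared between P8 and P29, an interval over which the opossum cord matures and loses its ability to regrow axons across a transection. All 3 chains were higher in the P29 control than in either P8 control, by 4.52-fold for C1QA, 5.04-fold for C1QB and 4.79-fold for C1QC within run 1. Without the block the log2 fold changes were 2.00 (standard error 0.39, adjusted p = 0.0702) for C1QA, 2.38 (0.55, adjusted p = 0.0964) for C1QB and 2.10 (0.40, adjusted p = 0.0674) for C1QC, so none was called. With the block all 3 rose, by 2.09 (standard error 0.31, adjusted p = 0.000675), 2.05 (0.40, adjusted p = 0.00341) and 2.04 (0.35, adjusted p = 0.00161). Over all genes, 1.71% were called as raised without the block and 12.5% with it, so a raised call was common in this comparison. By size of the log2 change, the chains stood above 94.73% to 94.95% of the tested genes in the fit with the block. A single library carries the P29 value, and its spread is assumed to be that of the other groups.

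Injured cords gave the same comparison of ages with 2 libraries on each side, a comparison added after the data were seen. In run 1 the P28+24h level was 4.11-fold that of P7+24h for C1QA, 4.67-fold for C1QB and 4.73-fold for C1QC. In run 2 the ratios were smaller, 2.22, 1.99 and 2.54. Each chain was thus higher at the older age in both runs. The log2 fold changes without the block were 1.56 (standard error 0.33), 1.74 (0.46) and 1.80 (0.34), with adjusted p = 0.0688, 0.106 and 0.0531 in the quasi-likelihood test of edgeR. With the block they were 1.56 (0.22), 1.61 (0.27) and 1.76 (0.23), and all 3 were called, with adjusted p = 0.000251, 0.000835 and 0.000181. Without the run 1 P28+24h library, C1QB with the block was at 1.01 in place of 1.61. The background of raised calls was 2.26% without the block and 13.8% with it.

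At P7+24h each chain was higher than in the P8 control of the same run. The ratio of CPM in runs 1 and 2 was 3.12 and 3.85 for C1QA, 4.17 and 4.25 for C1QB and 3.23 and 3.37 for C1QC, so the 2 runs differed little. By size of the log2 fold change the chains ranked 72, 50 and 81 among the 13534 genes. Their log2 fold changes of 1.82, 2.07 and 1.72 had an edgeR adjusted p of 1 without the block, which called 0% of genes as raised (69 genes had an unadjusted p under 0.05). With the block they were 1.82 (standard error 0.25), 2.08 (0.32) and 1.72 (0.28), with adjusted p = 0.0730, 0.117 and 0.117, beside 0.0148% of genes called as raised. The likelihood ratio test with the block called all 3, with adjusted p = 9.77e-08, 7.87e-07 and 1.85e-05, and 0.266% of all genes as raised.

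At P28+24h the chains were higher than in the P29 control in both injured libraries, by 2.84- and 2.35-fold for C1QA, 3.86- and 1.58-fold for C1QB and 3.18- and 2.17-fold for C1QC, where the first value of each pair is within run 1 and the second sets the run 2 library against the run 1 control. The chains ranked 511 to 553 among 13534 genes by size of the log2 fold change, which was 1.37 (standard error 0.42), 1.44 (0.59) and 1.42 (0.43). All had an edgeR adjusted p of 1 without the block, where 0% of genes were called as raised and 157 had an unadjusted p under 0.05. With the block the log2 fold changes were 1.29 (0.29), 1.64 (0.36) and 1.44 (0.31), with adjusted p = 0.0674, 0.0647 and 0.0624 and 0.584% of genes called as raised. The likelihood ratio test with the block called all 3, with adjusted p = 0.00413, 0.0024 and 0.00249, and 2.61% of genes as raised. Without the run 1 injured library, the values with the block were 0.71, 0.73 and 0.79, each a change of less than 2-fold. What remains then is a run 2 library against a run 1 control.

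**Figure D2:**
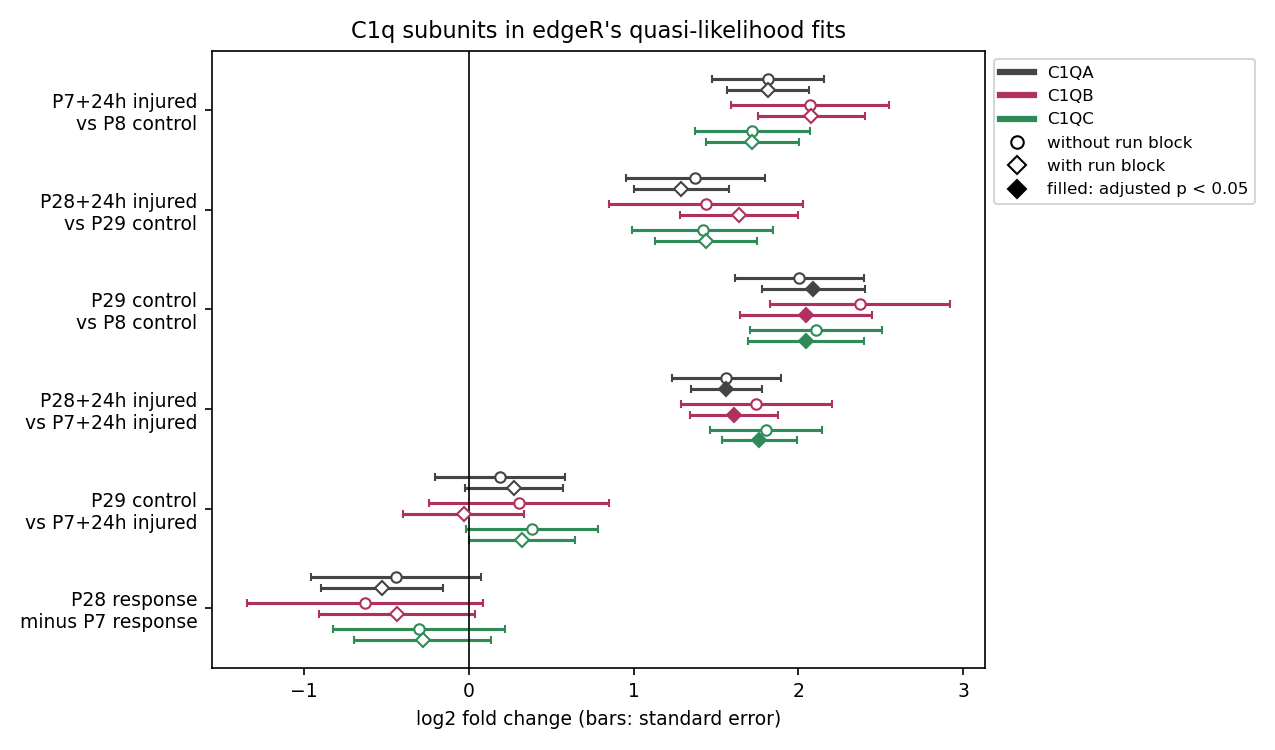
Log2 fold change of each chain in the 6 comparisons, from the quasi-likelihood test of edgeR without (circles) and with (diamonds) the run as a block; bars are standard errors and filled symbols have an adjusted p under 0.05. Filled symbols are found with the block in the comparison of P29 with P8 controls and in that of the injured cords of the 2 ages.

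The response to injury was not shown to differ between ages. The log2 fold change at P28+24h minus that at P7+24h was -0.44 (standard error 0.51) for C1QA, -0.63 (0.71) for C1QB and -0.30 (0.52) for C1QC, each with an edgeR adjusted p of 1 (59 genes under an unadjusted p of 0.05). With the block the differences were -0.53 (0.37), -0.44 (0.47) and -0.28 (0.41), with adjusted p = 0.730, 0.831 and 0.891. Calls in either direction covered 0% of genes without the block and 0.0369% with it. In the fit with the block and without the run 1 P28+24h library, the differences were -1.11, -1.33 and -0.92. Without the run 2 P7+24h library they were -0.04, 0.12 and 0.16. Each of these fits has 1 residual degree of freedom.

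The P29 control and the P7+24h injured cords, next to each other in the order of levels, did not differ beyond their spread. The P29 level exceeded that of P7+24h by a log2 of 0.19 (standard error 0.40) for C1QA, 0.30 (0.55) for C1QB and 0.38 (0.40) for C1QC without the block, and by 0.27 (0.30), -0.03 (0.37) and 0.32 (0.32) with it. The adjusted p-values from edgeR lay between 0.497 and 0.961 over both fits. In CPM the P29 control stood between the P7+24h libraries for C1QA and above both for C1QB and C1QC. The lack of a call with so few libraries does not show that the levels are equal. This comparison too was added after the data were seen. It shares the P29 control with the comparisons of controls and of P28+24h, so the values are not independent of each other.

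The chains tracked each other over the libraries. Pearson's r of log2 CPM over the 7 libraries was 0.969 for C1QA with C1QB, 0.995 for C1QA with C1QC and 0.982 for C1QB with C1QC, where the libraries share groups, runs and depth differences. Transcript lengths were not at hand, so read counts do not give the order of the chains in molecules, and only the variation of their ratios can be described. The count ratio of C1QA to C1QC was the steadiest, from 1.35 to 1.88, a 1.39-fold span. C1QB to C1QC ranged from 0.965 to 1.63 and C1QA to C1QB from 0.841 to 1.70, a 2.02-fold span.

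With the runs pooled, each of the 3 ratios overlapped between injured and control libraries. In log2, C1QA to C1QB averaged 0.26 ± 0.50 (SD, n = 4) in injured and 0.43 ± 0.29 (n = 3) in control libraries, a difference of -0.17 (p = 0.686, two-sided exact permutation test). C1QA to C1QC differed by 0.01 (p = 0.971) and C1QB to C1QC by 0.17 (p = 0.629) in the same exact test. The 3 pairs were adjusted together, to 0.971 for each, and with 35 arrangements of the libraries the smallest p this design allows is 0.0571, so it could not have reached 0.05. This test takes no account of the run.

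The ratios stood apart by run, which was noticed after their values were seen and is given without a test. C1QA to C1QB was 0.841 to 1.28 in the 4 run 1 libraries and 1.53 to 1.70 in the 3 run 2 libraries. C1QB to C1QC was 1.26 to 1.63 in run 1 and 0.965 to 1.23 in run 2, and C1QA to C1QC was 1.35 to 1.61 and 1.64 to 1.88. None of the 3 ratios overlapped between runs, although those of C1QB to C1QC and of C1QA to C1QC came close. As a share of all C1q counts, C1QB took 32.6% to 40.6% in run 1 and 26.8% to 29.9% in run 2. In runs 1 and 2 the C1QB share was 32.6% and 27.0% in P8 controls and 38.9% and 29.9% in P7+24h. The gap was widest in the pair with the deepest C1q counts. In P28+24h, C1QB was 40.6% of 975 C1q counts in run 1 (95% Wilson interval 37.6% to 43.7%) and 26.8% of 1318 in run 2 (24.5% to 29.2%). C1QC stayed between 23.9% and 27.8% in all libraries. Collection and sequencing differ together between the runs, and their part in these ratios was not tested.

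Within runs, a comparison added after the data were seen, injured and control libraries of the same age form 3 pairs. C1QA to C1QB was lower in the injured library of each pair, at 0.956 against 1.28 and 1.53 against 1.68 at P7+24h in runs 1 and 2, and 0.841 against 1.14 at P28+24h in run 1. C1QB to C1QC was higher in the injured library of each pair, at 1.63 against 1.26, 1.23 against 0.976 and 1.61 against 1.33 in the same order. C1QA to C1QC was lower in 2 pairs and higher in 1. The mean log2 difference was -0.333 ± 0.167 (SD, n = 3) for C1QA to C1QB, -0.00567 ± 0.182 for C1QA to C1QC and 0.328 ± 0.0453 for C1QB to C1QC. By a two-sided exact permutation of the signs, p was 0.25, 1 and 0.25 (adjusted over the 3 ratios 0.375, 1 and 0.375), and 0.25 is the smallest p that 3 pairs allow. So C1QB reads were more frequent, relative to those of the other chains, in the injured library of every pair, but too few pairs exist for this to pass a test.

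**Figure D3:**
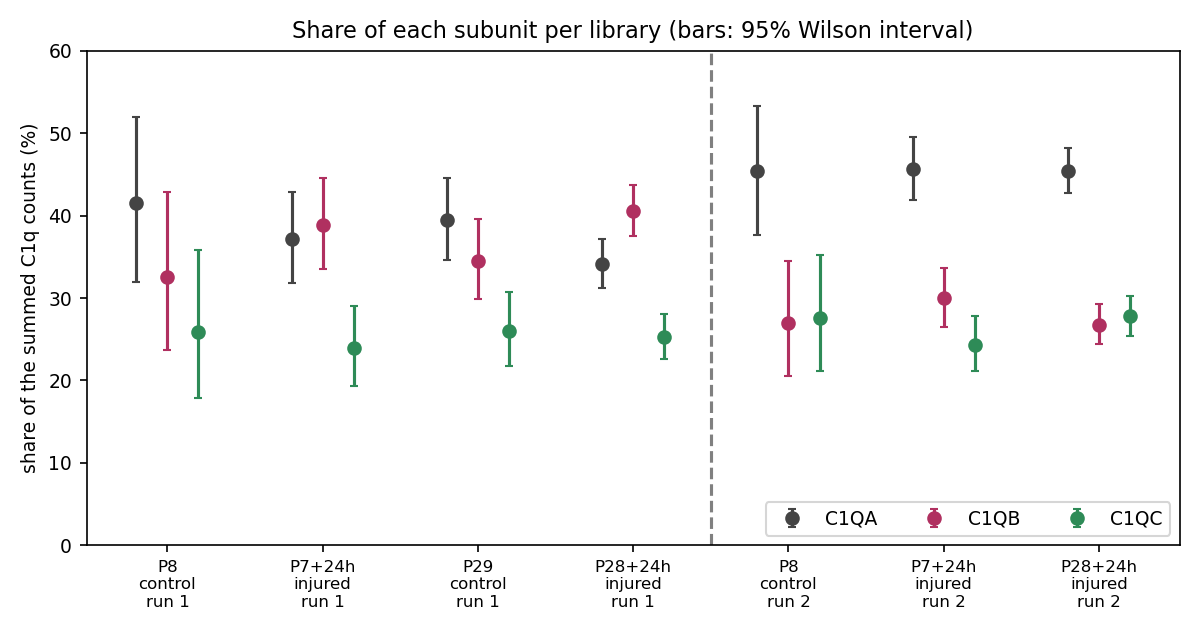
Share of C1QA, C1QB and C1QC in the summed C1q counts of each library in percent, with 95% Wilson intervals, run 1 left of the dashed line and run 2 right of it. C1QB takes 32.6% to 40.6% in run 1 and 26.8% to 29.9% in run 2.

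Among the partners of C1q in the classical pathway, C1R, C1S, SERPING1 and C3 were called as raised at P28+24h in the fit with the block. Of the 8 symbols listed for the pathway and its C1 inhibitor, 5 had an identifier. Identifiers of all lists here came almost wholly from the study's tables of genes it found changed by injury in these same libraries, in which the C1q chains stand as well. Hence no count or direction of a list after injury is independent evidence. C1R, a protease of the C1 complex, had 14 and 29 counts in P8 controls, 33 and 39 in P7+24h, 22 in the P29 control and 111 and 154 in P28+24h. C1S, the protease that C1r activates, had 17 and 69, 74 and 96, 42, and 190 and 338 counts. SERPING1, the C1 inhibitor, had 85 and 100, 107 and 154, 67, and 217 and 305 counts. For these 3 genes the P28+24h libraries were above all others, and the P29 control was not set apart from the younger cords. With the block, the log2 fold change between P29 and P8 controls was 0.35 (standard error 0.47) for C1R, 0.56 (0.51) for C1S and -0.17 (0.27) for SERPING1, with edgeR adjusted p = 0.614, 0.439 and 0.664.

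At P28+24h these 3 genes rose in the fit with the block, C1R by 5.66-fold (adjusted p = 0.0298), C1S by 4.98-fold (adjusted p = 0.0480) and SERPING1 by 3.72-fold (adjusted p = 0.0217) in the quasi-likelihood test of edgeR. C3, the central component on which the complement pathways converge, rose by 3.35-fold (adjusted p = 0.0393), from 37 counts to 97 and 480. C3 was also the 1 gene of the 5 called between P29 and P8 controls with the block, by 9.72-fold (adjusted p = 0.000262), in the same direction as the C1q chains. Without the block its adjusted p there was 0.138, and within run 1 it stood at 10.6 CPM against 1.48 CPM. The C4-like gene, similar to the C1 complex's first substrate, went from 71 counts in the P29 control to 142 and 192 in P28+24h, a log2 fold change of 1.61 (adjusted p = 0.107). In all, 4 of the 5 were called as raised at P28+24h with the block, none without it and 5 in the likelihood ratio test. Over all genes, 0.584% were called as raised there with the block and 2.61% in the likelihood ratio test. Between controls with the block 12.5% were. The median log2 fold change of the 5 at P28+24h was 1.89 with the block, beside 1.44 for the C1q chains and 0.00 for all genes tested. At P7+24h, none of the 5 was called in either fit or in the likelihood ratio test, their median being 0.71 with the block, beside 1.82 for the C1q chains. Whether the C1q chains and these genes differ in their changes was not tested.

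**Figure D4:**
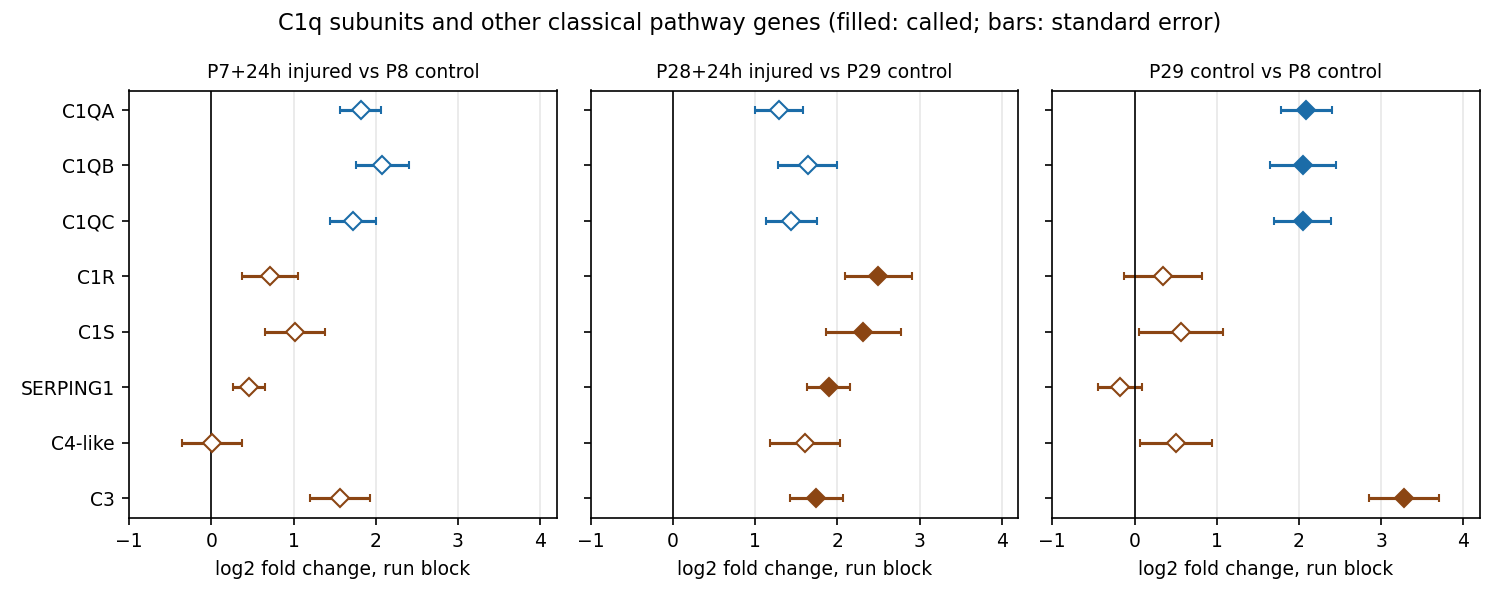
Log2 fold change with the run block (the quasi-likelihood test of edgeR, bars are standard errors) of the C1q chains in blue and of C1R, C1S, SERPING1, the C4-like gene and C3 in brown, in 3 comparisons; filled symbols are calls. The C1q chains are filled between P29 and P8 controls, and C1R, C1S, SERPING1 and C3 at P28+24h.

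Of the other complement lists few members had an identifier: 2 of 9 for the lectin and alternative pathway, 1 of 7 for the terminal pathway, 0 of 8 for regulators, 2 of 9 for receptors and 1 of 6 for proteins that bind C1q. CFP, or properdin, which stabilises the alternative pathway convertase, rose by 3.16-fold at P28+24h with the block (adjusted p = 0.0399, the quasi-likelihood test of edgeR), but was not called without it (2.23-fold, adjusted p of 1). Its level was 11.2 CPM in the P29 control, 36.3 CPM in the run 1 and 14.2 CPM in the run 2 injured library, so the run 2 library stood little above the run 1 control. ITGB2, the beta chain of complement receptor integrins, rose by 2.69-fold between P8 and P29 controls with the block (adjusted p = 0.0342), and was not called without it (1.54-fold, adjusted p = 0.727). The CFB-like gene, C7, VSIG4 and SCARF1 were not called between injured and control cords or between control ages by the quasi-likelihood method, with or without the block. The likelihood ratio test with the block called the CFB-like gene (3.94-fold, adjusted p = 0.02), C7 (6.30-fold, adjusted p = 0.0134), SCARF1 (2.52-fold, adjusted p = 0.00206) and VSIG4 (5.60-fold, adjusted p = 0.00276) as raised at P28+24h. At P7+24h the same edgeR test called VSIG4 (5.81-fold, adjusted p = 0.00127) and ITGB2 (2.67-fold, adjusted p = 0.00504). The fold of C7 rests on 5 counts in the P29 control, against 33 and 25 in P28+24h (1.435 against 11.64 and 4.048 CPM). For the CFB-like gene these were 16 counts against 37 and 264 (4.591 against 13.05 and 42.75 CPM), so its 2 injured libraries were far apart. VSIG4, a macrophage receptor for C3 fragments, had 5 and 3 counts in P8 controls, 14 and 37 in P7+24h, 7 in the P29 control and 35 and 63 in P28+24h. SCARF1, a scavenger receptor that binds C1q, had 51 and 25, 53 and 24, 66, and 129 and 99 counts. In CPM it stood at 18.9 in the P29 control, 45.5 in the run 1 and 16.0 in the run 2 P28+24h library. Only the run 1 injured library was thus above the control.

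Of the 29 symbols of the C1q domain family, 2 had an identifier, and both were higher in the P29 control than in any younger library. C1QTNF3, a secreted protein with a C1q-like domain, had 9 and 23 counts in P8 controls, 10 and 40 in P7+24h, 78 in the P29 control and 24 and 101 in P28+24h. EMILIN2, an extracellular matrix glycoprotein with such a domain, had 20 and 32, 29 and 68, 329, and 118 and 435 counts. In CPM, C1QTNF3 went from 22.4 in the P29 control to 8.46 and 16.35 in P28+24h. EMILIN2 went from 94.4 to 41.6 and 70.4 CPM, so the higher run 2 counts of both genes reflect a deeper library. Between P8 and P29 controls C1QTNF3 rose by 10.99-fold (adjusted p = 7.5e-05) and EMILIN2 by 22.8-fold (adjusted p = 1.51e-06) with the block (edgeR). EMILIN2 was called without the block as well (18.4-fold, adjusted p = 0.0159). At P28+24h their log2 fold changes with the block were -1.42 (adjusted p = 0.0818) and -1.05 (adjusted p = 0.0738), of opposite sign to those of the C1q chains. Both identifiers came from the study's table of genes changed at P28+24h, so their change there was fixed by how they were found, and the P29 control enters both comparisons. The likelihood ratio test with the block called both as lowered there.

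The summed level of transcripts that mark microglia and macrophages moved with the C1q chains, though not every marker did. Of 18 listed markers, 9 had an identifier, and their summed level was 14.3 and 15.5 CPM in P8 controls, 45.9 and 70.8 CPM in P7+24h, 48.8 CPM in the P29 control and 183 and 165 CPM in P28+24h. The groups stood in nearly the same order as for C1q, with the P29 control inside the range of P7+24h. All 9 had a positive log2 fold change at P7+24h and at P28+24h, with medians of 1.85 and 1.90 with the block, where 51.0% and 49.7% of all genes were positive. As their identifiers came from the study's tables of genes changed by injury, these directions were fixed by how the markers were found. None was called after injury by the quasi-likelihood method with or without the block. The likelihood ratio test called 7 at P7+24h and 8 at P28+24h, beside 0.266% and 2.61% of all genes as raised. Between P8 and P29 controls 3 of the 9 were called with the block, where 12.5% of all genes were called as raised. SPI1, the transcription factor PU.1 of the myeloid lineage, rose by 3.69-fold (adjusted p = 0.0197). MPEG1, a pore-forming protein of macrophages, rose by 3.87-fold (adjusted p = 0.0262). TREM2, a microglial receptor, was called too (adjusted p = 0.000262), with 0 and 3 counts in the P8 controls and 40 in the P29 control, at least 18.6-fold higher against a floor of 3 counts per library. CSF1R, the receptor on which microglia depend, had 3 and 7 counts in P8 controls, 8 and 34 in P7+24h, 7 in the P29 control and 19 and 135 in P28+24h. The MRC1-like gene, similar to a mannose receptor of macrophages, had 5 and 10, 24 and 32, 2, and 15 and 32 counts, so it was lowest in the P29 control and no higher in P28+24h than in P7+24h. MARCO, a macrophage scavenger receptor, had 1 and 2, 27 and 28, 2, and 22 and 23 counts, and was likewise at about the same level in both injured groups.

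For each read on the 9 markers there were 1.53 and 1.62 C1q reads in P8 controls, 1.67 and 1.35 in P7+24h, 2.15 in the P29 control and 1.88 and 1.30 in P28+24h. The ratio to the summed markers was thus between 1.30 and 2.15, with C1q counts of 89 to 1318 in libraries of unlike depth. Ratios to single markers varied more, from 9.76 to 52.1 for CSF1R, 8.90 to 30.4 for CTSS and 5.42 to 15.1 for TYROBP. With MPEG1 alone the ratio was 8.90 to 20.9 in run 1 and 3.92 to 5.07 in run 2, so it did not overlap between runs. For TYROBP the runs were apart in the other direction, at 5.42 to 8.90 in run 1 and 10.1 to 15.1 in run 2. The share of the macrophage transcripts in the C1q changes was not tested.

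**Figure D5:**
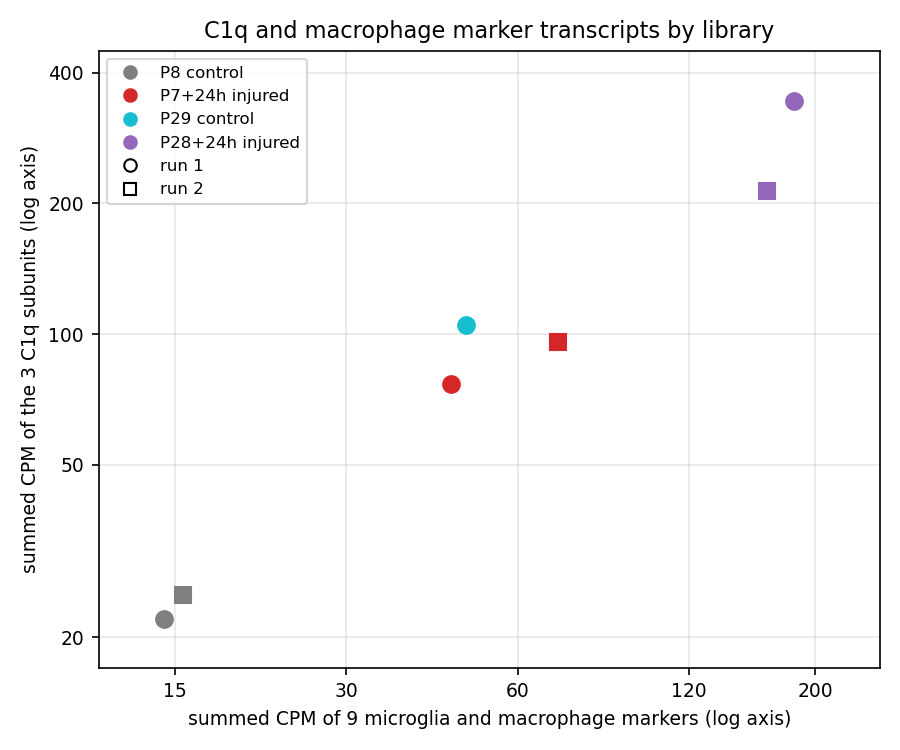
Summed CPM of the 3 C1q chains (y axis, log) against summed CPM of 9 microglia and macrophage markers (x axis, log) in each library; colours are groups, circles run 1 and squares run 2. Both sums are lowest in the P8 controls and highest in the P28+24h injured libraries.

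Other marker lists also moved in some of these comparisons. From the P29 control to P28+24h the summed level of 6 skeletal muscle genes went from 11.5 to between 61.5 and 159 CPM, that of 3 neutrophil genes from 5.45 to between 17.3 and 18.1 CPM and that of 6 erythroid genes from 282 to between 186 and 648 CPM. From P8 controls to P7+24h the muscle genes went from 5.19 to 8.06 CPM to between 9.44 and 13.1 CPM, the neutrophil genes from 3.62 to 17.1 CPM to between 6.72 and 25.96 CPM and the erythroid genes from 80.1 to 409 CPM to between 70.6 and 265 CPM. Between P8 and P29 controls 4 oligodendrocyte genes went from at most 339 to 89880 CPM and GFAP, of astrocytes, from at most 671 to 1550 CPM. HOXB3 and HOXD4, genes of rostral segments, summed to 27.8 CPM in the P29 control and to between 52.2 and 59.4 CPM in P28+24h. At the younger age they were higher and overlapped, at 87.9 to 155 CPM in P8 controls and 88.25 to 147 CPM in P7+24h. No gene of these lists was at 0 in a P28+24h or P29 library. The part of other tissue, blood or segment in the C1q values was not tested.

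Over the 7 libraries, the 5 tested genes whose log2 CPM was most like the mean of the 3 chains were ENSMODG00000013273 (Pearson's r = 0.988), a gene similar to GP6 (ENSMODG00000003816, r = 0.986), SPI1 (ENSMODG00000019909, r = 0.986), a gene similar to CASP4, CASP5 and CASP12 (ENSMODG00000027892, r = 0.986) and ENSMODG00000028475 (r = 0.984). GP6 is a collagen receptor of platelets, and the caspases are of the inflammatory kind. The first of the 5 spanned a log2 range of 0.94 over the libraries against 3.89 for the mean of the chains, so it shared their order and not their size of change. The GP6-like, the caspase-like and the last gene had as few as 2, 1 and 1 counts in their lowest library. Of all 13531 genes ranked, 135 had an r of at least 0.9. Of the 9 microglia and macrophage markers, SPI1, FCER1G (r = 0.972), TREM2 (r = 0.952) and TYROBP (r = 0.928) ranked 3, 12, 29 and 67 and CTSS (r = 0.895) 148, whereas CSF1R (r = 0.832), MPEG1 (r = 0.790), MARCO (r = 0.763) and the MRC1-like gene (r = 0.537) ranked 446, 779, 1091 and 3528. Of the complement genes, VSIG4 (r = 0.922) ranked 84, C3 (r = 0.910) 101, C1S (r = 0.902) 125 and C1R (r = 0.902) 126. These likenesses rest on 7 libraries in 4 groups and describe them only.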

How the data were processed

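RNA-seq of 7 pooled spinal cord libraries was used. The RNA integrity number required of a sample is low per the labels and high in the study's methods, and which holds is not known. The authors aligned trimmed single-end reads to the genome of Ensembl release 69 using Bowtie2, and HTSeq in union mode gave the number of reads per gene. Their processing notes name edgeR 2.6.12. The deposited counts per gene are raw, 3332232 to 6256074 per library, and a use of strand is not stated in the sources used here. From these counts, TMM factors were computed and edgeR 4.0.16 (R 4.3.3) fitted the 4 groups by its quasi-likelihood method to genes kept by filterByExpr at a minimum count of 10, with 3 residual degrees of freedom. The replicate number is the run, and same-numbered libraries deviated together (correlations 0.802, 0.699 and 0.737 across genes), so the fit with the run as a block (2 residual degrees of freedom) is given beside it. The common dispersion was 0.141 without and 0.0181 with the block. Log2 CPM used a prior count of 2. Count ratios were compared by exact permutation with scipy 1.17.1. Alternatives were a likelihood ratio test, exact tests as in the study's methods, fits to the compared groups, DESeq2 1.42.0, other scaling and filters, and leaving out each replicate.

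The members, lists and tests were chosen with earlier results of these data known. Identifiers of listed genes came from the study's supplementary tables of genes changed by injury, and that of GFAP from its proteomic table. Named genes are the chains, listed classical pathway genes, listed genes called with or without the block in comparisons of injury or age, and the 5 most alike. The proteomic data were not analysed here.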

Additional observations from a re-analysis of the deposited data

How the results depend on the processing

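Unless a value is given with its setting, all values here are log2 fold changes for C1QA, C1QB and C1QC in that order. In the quasi-likelihood fit of all libraries, without the replicate block, no chain was called in any comparison. Tests on 2 groups used only the libraries compared. Between P29 and P8 controls all 3 were called with the replicate block (2.09, 2.05, 2.04), the likelihood ratio test with it (2.10, 2.08, 2.06), the exact test on all libraries (2.00, 2.38, 2.10) or on 2 groups (2.01, 2.38, 2.11), the quasi-likelihood fit of 2 groups (2.01, 2.38, 2.11) and DESeq2 (1.98, 2.36, 2.08). Between P28+24h and P7+24h all were called with the replicate block (1.56, 1.61, 1.76), the likelihood ratio test (1.57, 1.62, 1.77), the exact test on all libraries (1.56, 1.74, 1.80) and DESeq2 (1.53, 1.71, 1.77), and C1QA (1.56) and C1QC (1.80) in the exact test on 2 groups. At P7+24h the likelihood ratio test called all (1.81, 2.07, 1.72) and the exact test on 2 groups C1QB (2.07). At P28+24h the likelihood ratio test called all (1.29, 1.62, 1.43).

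With each replicate left out, with or without the block, values ran at P7+24h from 1.44 to 2.10, 1.63 to 2.44 and 1.37 to 1.98, at P28+24h from 0.71 to 1.44, 0.65 to 1.89 and 0.79 to 1.61, and between controls from 1.86 to 2.30, 1.69 to 2.42 and 1.82 to 2.28. Between injured ages they ran from 1.19 to 1.93, 0.97 to 2.20 and 1.36 to 2.17, for the difference in response from -1.11 to -0.04, -1.41 to 0.12 and -0.92 to 0.16, and for P29 control against P7+24h from -0.13 to 0.53, -0.53 to 0.33 and -0.039 to 0.57. The last comparison also changed sign for C1QA with library size only (-0.083) and for C1QB with the replicate block (-0.031). Without the run 1 P28+24h library and with the block, the values at P28+24h were 0.71, 0.73 and 0.79. Fits with the block and 1 replicate left out are given for the size of change only. These fits have 1 residual degree of freedom, and a lone library is assumed to vary like the others. The single P29 control was not left out of the fits.

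The injured minus control log2 ratio was -0.17 for C1QA to C1QB, 0.01 for C1QA to C1QC and 0.17 for C1QB to C1QC. Within runs, over same-run pairs as a replicate block, it was -0.333, -0.00567 and 0.328. At P28+24h alone, where the control is of run 1 only, it was 0.0639, -0.0263 and -0.0901, and within run 1 there -0.443, -0.163 and 0.279. With each library left out the first ran from -0.333 to 0.0043 and the second from -0.0719 to 0.0856. The number of genes called between controls was 242 without and 2893 with the replicate block, 138 with library size only and 855 in DESeq2. For P7+24h these settings gave 0, 2, 0 and 2, and for P28+24h 0, 102, 0 and 0. The likelihood ratio test called 36 and 493. The cause of these changes was not tested.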
